A study of Homo sapiens with 9 samples.

Results

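The genes described here encode the classical and non-classical HLA class I heavy chains HLA-B, HLA-C, HLA-E and HLA-F, their shared light chain B2M, the peptide-loading proteins TAP1, TAP2 and TAPBP, and the class I transactivator NLRC5. They were chosen by name for this role, by a rule that uses no measured value though earlier results of these data were known, and all 9 were found among the 16772 genes of the expression table. Other class I heavy chain genes were not analysed here. RNA was sequenced from DU145, an established human prostate carcinoma line labelled wild type, after 6 days in medium with 20 µM H93 dissolved in DMSO (3 libraries), 500 nM SAHA dissolved in DMSO (3 libraries) or DMSO alone (3 libraries). SAHA, or vorinostat, is a hydroxamic acid that inhibits histone deacetylases, and H93 is known here only by its code name. The cells of all groups were parental DU145 cells kept in the same medium, which was changed every day. The labels do not say whether the 3 libraries of a group came from separate cultures, so the tests measure the spread between libraries, which may be technical.

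A class I molecule at the cell surface is a heavy chain paired with beta-2-microglobulin, the product of B2M, around a short peptide that is shown to CD8 T cells. Peptides cut by the proteasome are pumped into the endoplasmic reticulum by the TAP1-TAP2 transporter, and tapasin, the product of TAPBP, bridges the transporter to empty class I molecules while they load. NLRC5 drives transcription of class I genes from a conserved promoter module, and interferons raise the whole pathway. Loss of class I is a known route by which tumours, prostate carcinoma included, escape T cells, whereas very low class I can expose a cell to natural killer cells.

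Values were FPKM, fragment counts divided by transcript length and by the library's total, which allows levels to be compared between genes per unit length. The FPKM of a library summed to between 348656 and 355741, and between 14910 and 15295 genes had a value above 0. Low values gave relative depths of 0.875 to 1, but the absolute depth was unknown, so no counting interval was computed. Log2(FPKM + 1) values of libraries within a group had a Pearson correlation across genes of at least 0.998. The epithelial keratins KRT8 and KRT18 were high in every library, at 663.6 to 736.6 FPKM and 653.3 to 713.6 FPKM. Of 6 leukocyte markers looked for, 4 were in the table and 3 of these were under 1 FPKM in every library, with PTPRC, the pan-leukocyte marker CD45, at no more than 0.0179 FPKM. The summed leukocyte markers lay at 0.910 to 1.12 FPKM with H93, 0.669 to 1.18 FPKM with SAHA and 0.622 to 0.691 FPKM with DMSO. Most of that sum was CD14, which averaged 0.939, 0.807 and 0.574 FPKM in the H93, SAHA and DMSO groups. Of 5 fibroblast markers, 4 were under 1 FPKM in every library. The sum of all 5 lay at 3.69 to 4.22 FPKM with H93, 3.602 to 5.32 FPKM with SAHA and 2.31 to 3.06 FPKM with DMSO. Most of it was COL1A1, which averaged 3.20, 3.25 and 2.24 FPKM in the H93, SAHA and DMSO groups.

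In the GENCODE annotation of GRCh38, 7 of the 9 genes lie on chromosome 6 and all 9 are protein coding. HLA-C lies at chr6:31268749-31272130 on the minus strand. HLA-B is annotated at chr6:31269491-31357188 on the minus strand, a span drawn out by a transcript that reaches into HLA-C. HLA-F lies at chr6:29722775-29738528 and HLA-E at chr6:30489467-30494205, both on the plus strand. TAP2 (chr6:32821833-32838780), TAP1 (chr6:32845209-32853978) and TAPBP (chr6:33299694-33314387) lie on the minus strand of the same chromosome. B2M lies at chr15:44711487-44718877 and NLRC5 at chr16:56989485-57083531, both on the plus strand.

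The class I genes are related in sequence, so reads could be assigned to the wrong gene. In transcripts of the annotation, 2.12% of the 50-base windows of HLA-B, 6.17% of those of HLA-C, 5.13% of those of HLA-E and 1.25% of those of HLA-F occurred in another gene's transcript. TAP2 stood apart with 32.7%, because it shares 2064 of its 6390 exonic bases with the overlapping gene AL669918.1 on the same strand. B2M and NLRC5 shared none, TAP1 1.05% and TAPBP 5.13%. In transcripts of the other members alone, the shares were 1.84% for HLA-B, 3.42% for HLA-C, 1.41% for HLA-E and 0.669% for HLA-F. On the opposite strand, AL671883.2 overlapped 17.8% of the exonic bases of HLA-B, and PSMB8-AS1 9.49% of those of TAP1. HLA-F was overlapped there by HLA-F-AS1 (12.3%), AL645939.1 (16.1%) and RPL23AP1 (5.92%). The reference carries a single haplotype, and how the authors' counting treated shared reads or strand is not given in the sources used here. Small differences between HLA-B and HLA-C and the level of TAP2 are therefore uncertain. Whether opposite-strand reads entered the levels of HLA-B, HLA-F and TAP1 was not tested.

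Promoters are shown for 5 members that span the roles and directions described next: the classical heavy chains HLA-B and HLA-C, the light chain, a transporter subunit and tapasin. Each line gives the 250 bases before the RefSeq start site in GRCh38.p14, read along the gene's strand, from chr6:31357180-31357429 (HLA-B, minus), chr6:31272093-31272342 (HLA-C, minus), chr15:44711267-44711516 (B2M, plus), chr6:32853705-32853954 (TAP1, first start site, minus) and chr6:33314079-33314328 (TAPBP, minus). Capitals mark letters matching, on either strand, the interferon-response motif (GAAA, 2 bases of any kind, GAAA), the NF-kB motif (GGG, 2 bases of any kind, T, 2 bases of any kind, CC), TGACG (the core of a CREB/ATF site) or CCAAT (the box bound by NF-Y).
HLA-B: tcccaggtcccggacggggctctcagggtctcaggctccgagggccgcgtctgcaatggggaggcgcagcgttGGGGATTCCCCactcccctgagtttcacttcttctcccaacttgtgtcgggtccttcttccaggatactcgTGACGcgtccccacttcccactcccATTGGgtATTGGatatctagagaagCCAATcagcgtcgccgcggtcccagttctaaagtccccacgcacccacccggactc
HLA-C: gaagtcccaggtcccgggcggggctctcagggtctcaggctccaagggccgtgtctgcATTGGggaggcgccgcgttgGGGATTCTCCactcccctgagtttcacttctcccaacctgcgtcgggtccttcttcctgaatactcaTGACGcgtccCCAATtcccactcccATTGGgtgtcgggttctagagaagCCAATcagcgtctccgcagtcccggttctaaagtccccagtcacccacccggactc
B2M: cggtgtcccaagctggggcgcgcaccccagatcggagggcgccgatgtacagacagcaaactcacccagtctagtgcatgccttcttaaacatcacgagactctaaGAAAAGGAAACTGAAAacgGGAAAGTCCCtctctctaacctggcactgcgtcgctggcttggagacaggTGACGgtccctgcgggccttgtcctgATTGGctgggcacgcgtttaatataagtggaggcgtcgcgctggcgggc
TAP1: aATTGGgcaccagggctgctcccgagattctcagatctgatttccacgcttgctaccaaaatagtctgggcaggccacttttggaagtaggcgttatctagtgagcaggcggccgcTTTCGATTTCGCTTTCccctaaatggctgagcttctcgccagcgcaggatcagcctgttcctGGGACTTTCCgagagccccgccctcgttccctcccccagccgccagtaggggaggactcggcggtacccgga
TAPBP: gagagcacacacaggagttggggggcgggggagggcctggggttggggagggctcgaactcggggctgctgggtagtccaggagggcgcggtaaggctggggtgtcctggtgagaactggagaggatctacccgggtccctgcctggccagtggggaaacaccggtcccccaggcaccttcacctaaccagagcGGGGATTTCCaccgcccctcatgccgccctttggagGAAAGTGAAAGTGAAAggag

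RefSeq promoters were matched for 7 of the 9 members, all but HLA-E and NLRC5. HLA-B held overlapping NF-kB matches 177 and 176 bases before the start, and HLA-C an NF-kB match at 172 bases. They held TGACG at 106 and 105 bases, and CCAAT at 56 bases in both. CCAAT also lay at 81 and 74 bases in HLA-B and at 192, 95 and 80 bases in HLA-C. Neither HLA-B nor HLA-C held an interferon-response match. B2M held 2 overlapping interferon-response matches at 144 and 138 bases, an NF-kB match at 125 bases, TGACG at 75 bases and CCAAT at 49 bases. TAP1 held 2 overlapping interferon-response matches at 134 and 128 bases, an NF-kB match at 72 bases and CCAAT at 249 bases, but no TGACG. TAPBP, the tested member that fell, also held 2 overlapping interferon-response matches, at 20 and 14 bases, and an NF-kB match at 56 bases. It held neither TGACG nor CCAAT. HLA-F and TAP2 held no NF-kB match. HLA-F held an interferon-response match at 156 bases and CCAAT at 82 and 57 bases, but no TGACG. TAP2 held an interferon-response match at 58 bases and TGACG at 35 bases, but no CCAAT. The second start site of TAP1 held no match. Of 35116 promoters of the same length, 3.02% held the interferon-response motif, 19.7% the NF-kB motif, 21.2% TGACG and 32% CCAAT. For 13686 promoters of genes at 1 FPKM or more in at least 3 libraries, the shares were 2.19%, 24.4%, 28.2% and 33%. These letters come from the reference haplotype, not from the alleles of DU145, and a match is no evidence of binding.

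Both compounds were accompanied by higher RNA of the heavy chains, B2M and the TAP subunits, and by lower RNA of TAPBP. Of the 8 members that passed the filter of at least 1 FPKM in at least 3 libraries, 7 were higher and 1 was lower with H93 than with DMSO at a Benjamini-Hochberg adjusted p under 0.05 in limma. Over all 11525 genes tested, 34.9% were called higher and 35.0% lower with H93. The members' median log2 difference was 0.52, beside 0.0016 over all genes. With SAHA against DMSO the members also divided into 7 higher and 1 lower, where 27.4% and 31.4% of all genes were called, and their median was 0.44 beside -0.015 over all genes. The H93 and SAHA comparisons share the DMSO libraries, so their resemblance is not independent. None of the 8 reached a 2-fold difference on the log2(FPKM + 1) scale with either compound, a size that 2.28% of all genes reached with H93 and 1.12% with SAHA. For all 8 the libraries did not overlap between compound and DMSO, as held for 73.2% of all genes with H93 and 64.1% with SAHA. In bulk RNA, a change in RNA per cell and a change in the share of cells making it cannot be told apart.

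HLA-B, a classical heavy chain, changed most of the tested members. It measured 136.3, 139.4 and 139.2 FPKM in the H93 libraries, 127.1, 129.1 and 133.6 FPKM in the SAHA libraries, and 70.2, 73.5 and 69.8 FPKM in the DMSO libraries. Every treated library was far above every DMSO library, and the lowest H93 library was above the highest SAHA library. The log2 difference was 0.95 with H93 (SE 0.027, limma adjusted p = 3.20e-11) and 0.86 with SAHA (adjusted p = 1.38e-10), or 1.94 and 1.83 times the DMSO mean. HLA-B ranked 201st from the top of 11525 genes by its difference with H93 and 138th with SAHA.

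HLA-C, also a classical heavy chain, had the highest level of the 4 heavy chain genes in every group. It reached 155.2, 157.4 and 154.4 FPKM with H93, 138.9, 145.3 and 146.5 FPKM with SAHA, and 97.1, 103.8 and 100.8 FPKM with DMSO. The order of the groups was that of HLA-B, with no overlap between any pair of groups. Its log2 difference from DMSO was 0.63 with H93 (SE 0.029, limma adjusted p = 1.75e-09) and 0.51 with SAHA (adjusted p = 2.18e-08), and its group means were 1.55 and 1.43 times the DMSO mean.

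HLA-E, whose product presents leader peptides of other class I chains to the CD94-NKG2A receptor of natural killer cells, measured 80.2, 82.8 and 80.3 FPKM with H93, 73.5, 76.8 and 76.4 FPKM with SAHA, and 57.1, 54.4 and 56.6 FPKM with DMSO. It rose by 0.53 on the log2 scale with H93 (limma adjusted p = 5.40e-09) and by 0.42 with SAHA (adjusted p = 8.08e-08). HLA-F, a non-classical chain that can reach the surface without peptide, was scarce at 6.26, 5.95 and 6.49 FPKM with H93, 6.55, 5.79 and 5.59 FPKM with SAHA, and 4.36, 4.15 and 3.75 FPKM with DMSO. Its H93 and SAHA libraries overlapped, and both sets lay above DMSO. The log2 difference of HLA-F from DMSO was 0.51 with H93 (SE 0.061, limma adjusted p = 9.93e-06) and 0.46 with SAHA (adjusted p = 4.28e-05).

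B2M was the most abundant member per unit length in every group. It stood at 550.3, 548.4 and 541.6 FPKM with H93, 468.9, 487.1 and 473.2 FPKM with SAHA, and 324.8, 323.6 and 314.2 FPKM with DMSO. The 3 groups were separated by gaps wider than the spread within any of them. B2M rose by 0.77 on the log2 scale with H93 (SE 0.022, limma adjusted p = 3.22e-11) and by 0.57 with SAHA (adjusted p = 7.86e-10), to 1.70 and 1.48 times its DMSO mean.

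The transporter subunits rose less. TAP1 measured 25.5, 23.0 and 23.5 FPKM with H93, 21.2, 22.2 and 22.7 FPKM with SAHA, and 18.1, 18.4 and 18.9 FPKM with DMSO. Its first H93 library was the highest of the 9, and its H93 and SAHA libraries did not overlap although the lowest H93 value lay close to the highest SAHA value. TAP1 had log2 differences from DMSO of 0.36 with H93 (SE 0.040, limma adjusted p = 5.06e-06) and 0.24 with SAHA (adjusted p = 0.000231). TAP2 measured 25.5, 25.9 and 26.4 FPKM with H93, 24.9, 25.4 and 25.6 FPKM with SAHA, and 23.0, 21.8 and 22.2 FPKM with DMSO. The treated groups of TAP2 overlapped each other and both lay above DMSO, by 0.21 on the log2 scale with H93 (limma adjusted p = 4.98e-05) and 0.17 with SAHA (adjusted p = 0.000310). For TAP2 that is 1.16 and 1.13 times the DMSO mean, beside 32.3% of its exonic bases held in common with AL669918.1.

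TAPBP went the other way. It measured 32.0, 31.6 and 31.7 FPKM in the H93 libraries, 32.4, 30.9 and 31.9 FPKM in the SAHA libraries, and 40.6, 39.9 and 41.8 FPKM in the DMSO libraries. The treated libraries overlapped each other and all lay below DMSO. The log2 difference was -0.35 with H93 (SE 0.028, limma adjusted p = 2.61e-07) and -0.35 with SAHA (adjusted p = 4.76e-07), which left 0.779 and 0.778 of the DMSO mean. TAPBP was the 1517th lowest of 11525 genes by its difference with H93 and the 905th lowest with SAHA.

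**Figure D1:**
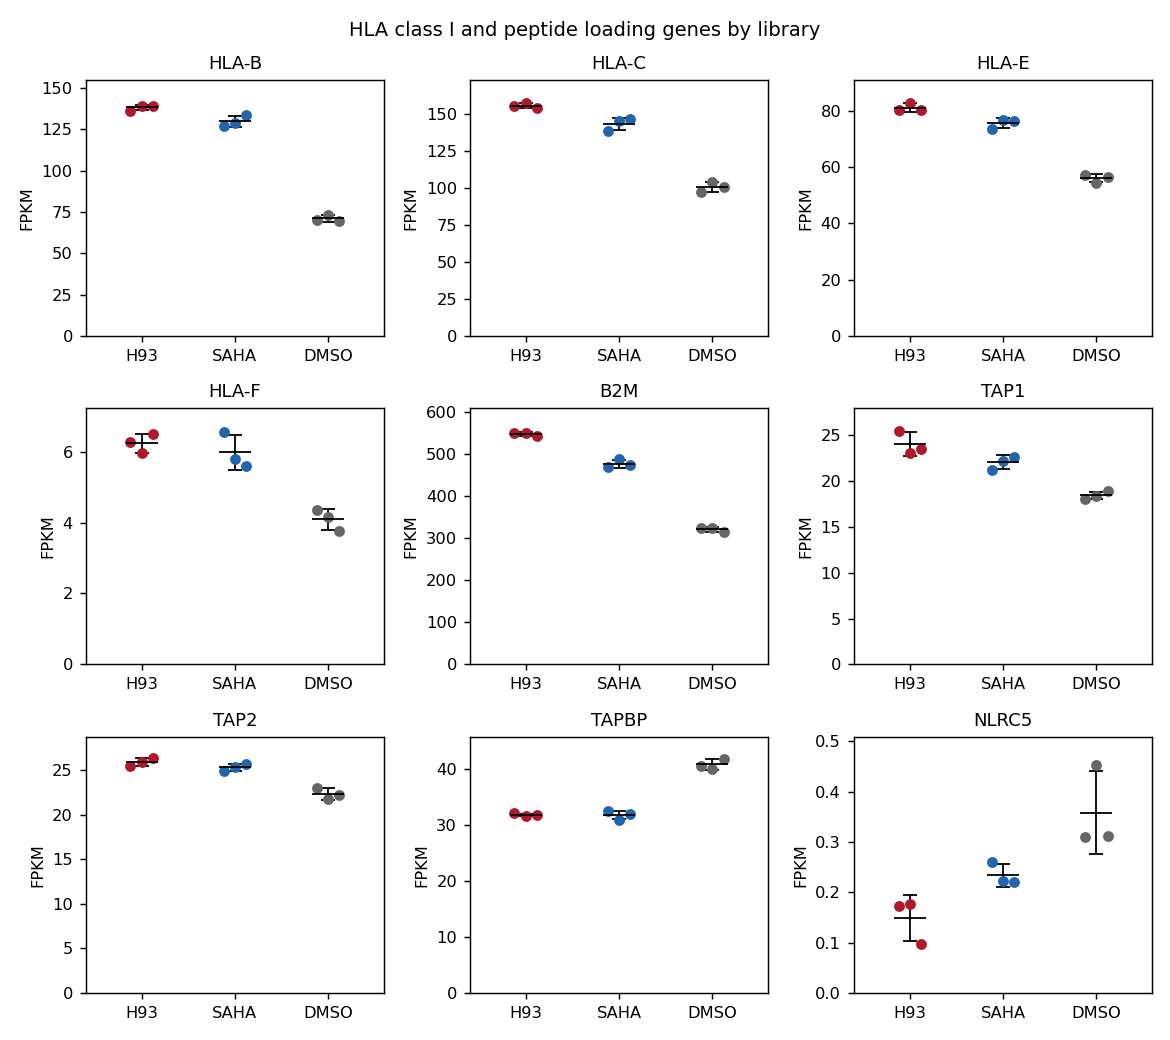
FPKM of the 9 members (vertical axis, each panel with its own scale from 0) in the H93, SAHA and DMSO libraries. Points are libraries and the bar with whiskers is the mean ± SD of 3 libraries. HLA-B reads 138.3 ± 1.74 with H93, 129.9 ± 3.31 with SAHA and 71.1 ± 2.04 with DMSO, TAPBP and NLRC5 are highest with DMSO, and all NLRC5 values are under 0.5.

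NLRC5, the class I transactivator, was near the floor of the assay. It was listed at 0.173, 0.177 and 0.0968 FPKM with H93, 0.261, 0.222 and 0.22 FPKM with SAHA, and 0.311, 0.454 and 0.311 FPKM with DMSO. The 3 groups did not overlap, with DMSO highest and H93 lowest, opposite to the order of the heavy chains. NLRC5 did not pass the filter on low values and was not tested with the other members. The ratio of its group means to DMSO was 0.416 with H93 and 0.653 with SAHA, and the log2 difference of -0.24 with H93 became -0.88 with a pseudocount of 0.1 and -0.057 with one of 5. With no filter, the limma adjusted p was 0.00166 with H93 and 0.0356 with SAHA.

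Ordered by mean FPKM, the levels ran B2M, HLA-C, HLA-B, HLA-E, TAPBP, TAP2, TAP1, HLA-F and NLRC5 in each of the 3 groups. The only neighbours in that order whose libraries overlapped were TAP2 and TAP1 in the H93 group. The gap between HLA-B and the next gene below it was wide in the treated cells, with HLA-B at 138.3 ± 1.74 and HLA-E at 81.1 ± 1.48 FPKM with H93, against 71.1 ± 2.04 and 56.0 ± 1.43 FPKM with DMSO (SD, n = 3). TAPBP, in contrast, lay closer to TAP2 in treated cells, at 31.8 ± 0.230 and 25.9 ± 0.468 FPKM with H93 against 40.8 ± 0.942 and 22.3 ± 0.650 FPKM with DMSO.

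**Figure D2:**
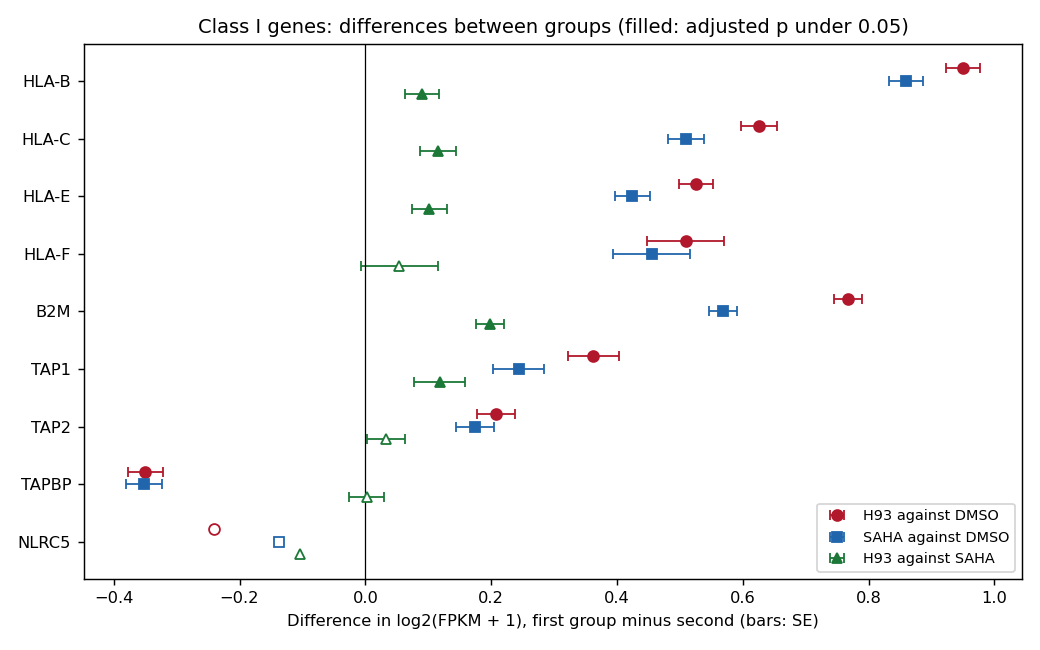
Log2(FPKM + 1) differences of the members (horizontal axis) for H93 against DMSO, SAHA against DMSO and H93 against SAHA, with whiskers of 1 SE from limma. Filled points have a Benjamini-Hochberg adjusted p under 0.05, and NLRC5 is drawn without an SE because it was not tested. HLA-B lies farthest to the right, at 0.95 with H93 and 0.86 with SAHA, and TAPBP lies at -0.35 with both.

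H93 and SAHA were compared directly, at the unlike doses of 20 µM and 500 nM, so the comparison describes these treatments and not the potency of the compounds. Of the 8 tested members, 5 were higher with H93 than with SAHA and none was lower, where 17.6% of all genes were called higher and 13.9% lower. Over all genes that balance turned over with the scaling, to 1693 higher and 1849 lower with median-ratio scaling and 1690 and 1801 with quantile scaling, against 2031 and 1598 as reported. The libraries of the H93 and SAHA groups did not overlap for 5 of the 8, and for 44.4% of all genes. All 8 differences were above 0, except that TAPBP turned negative with median-ratio (-0.013) and quantile scaling (-0.011), with a median of 0.096 on the log2 scale beside 0.016 over all genes.

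B2M had the largest difference between the compounds, 0.20 on the log2 scale (95% interval 0.151 to 0.246, limma adjusted p = 8.92e-05). TAP1 differed by 0.118 (limma adjusted p = 0.0419), HLA-C by 0.116 (adjusted p = 0.00948), HLA-E by 0.10 (adjusted p = 0.0155) and HLA-B by 0.090 (adjusted p = 0.0246). Median-ratio scaling ended the calls of HLA-B (adjusted p = 0.0610) and TAP1 (0.0705), and that of TAP1 also ended with quantile scaling (0.0509), no filter on low values (0.0760), the replicate block (0.0641) or a fit to the 6 treated libraries (0.0611). The call of TAP1 was likewise lost without H93 replicate 1 (adjusted p = 0.165), H93 replicate 3 (0.0558), SAHA replicate 1 (0.137), SAHA replicate 2 (0.0698), DMSO replicate 2 (0.0533) or DMSO replicate 3 (0.0501). HLA-B was no longer called without H93 replicate 2 (adjusted p = 0.0760), H93 replicate 3 (0.0677), SAHA replicate 1 (0.0802) or SAHA replicate 2 (0.0609). HLA-E was no longer called without H93 replicate 2 (0.0639) or SAHA replicate 1 (0.0550).

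No call was made between H93 and SAHA for HLA-F, TAP2 or TAPBP. The 95% interval of the log2 difference ran from -0.079 to 0.187 for HLA-F, from -0.032 to 0.0986 for TAP2 and from -0.059 to 0.0632 for TAPBP. These intervals bound the difference without showing that the compounds act alike on those genes. NLRC5 had 0.637 times the SAHA mean with H93, and with no filter its limma adjusted p was 0.149.

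The heavy chains did not keep their proportions. Together the 4 heavy chain genes summed to 378.0, 385.6 and 380.4 FPKM with H93, 346.0, 356.9 and 362.1 FPKM with SAHA, and 228.7, 235.8 and 230.9 FPKM with DMSO. HLA-B made up 36.3% ± 0.291 of that sum with H93, 36.6% ± 0.385 with SAHA and 30.7% ± 0.466 with DMSO (SD, n = 3). HLA-C made up 40.8%, 40.4% and 43.4% in the H93, SAHA and DMSO groups, and HLA-E made up 21.3%, 21.3% and 24.2%. HLA-F stayed below 2% on average, at 1.64% with H93, 1.69% with SAHA and 1.76% with DMSO.

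Within a library, the ratio of HLA-B to HLA-C was 0.879, 0.886 and 0.902 with H93, 0.916, 0.888 and 0.912 with SAHA, and 0.723, 0.708 and 0.692 with DMSO. All 6 treated libraries lay above the DMSO libraries, and the 2 compounds overlapped. On the log2 scale the ratio was higher by 0.33 with H93 and by 0.36 with SAHA than with DMSO, each with an exact permutation p of 0.1, two-sided, the smallest that 3 libraries against 3 allow. Over the 9 ratio comparisons made, those p-values adjusted to 0.15 by the Benjamini-Hochberg method. This ratio was chosen after its values were seen.

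The summed heavy chains over B2M gave ratios of 0.687, 0.703 and 0.702 with H93, 0.738, 0.733 and 0.765 with SAHA, and 0.704, 0.729 and 0.735 with DMSO. Heavy chain and light chain RNA thus moved nearly in step, with a log2 ratio of -0.52 ± 0.019 with H93, -0.42 ± 0.033 with SAHA and -0.47 ± 0.033 with DMSO (SD, n = 3). The H93 ratio was lower than that of SAHA, with a log2 difference of -0.0955, and lower than that of DMSO, with one of -0.051 (exact permutation p = 0.1 for each, adjusted 0.15), while SAHA and DMSO overlapped (difference 0.0445, exact permutation p = 0.2). TAP1 over TAP2 was 1.00, 0.889 and 0.892 with H93, 0.851, 0.877 and 0.885 with SAHA, and 0.785, 0.847 and 0.852 with DMSO. Its log2 value was higher with H93 than with DMSO by 0.16 and than with SAHA by 0.089 (exact permutation p = 0.1 for each, adjusted 0.15), and higher with SAHA than with DMSO by 0.074 (exact permutation p = 0.2). Without the first H93 library the difference of H93 and DMSO was 0.11 and that of H93 and SAHA 0.032, and without the first DMSO library that of SAHA and DMSO was 0.036.

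**Figure D3:**
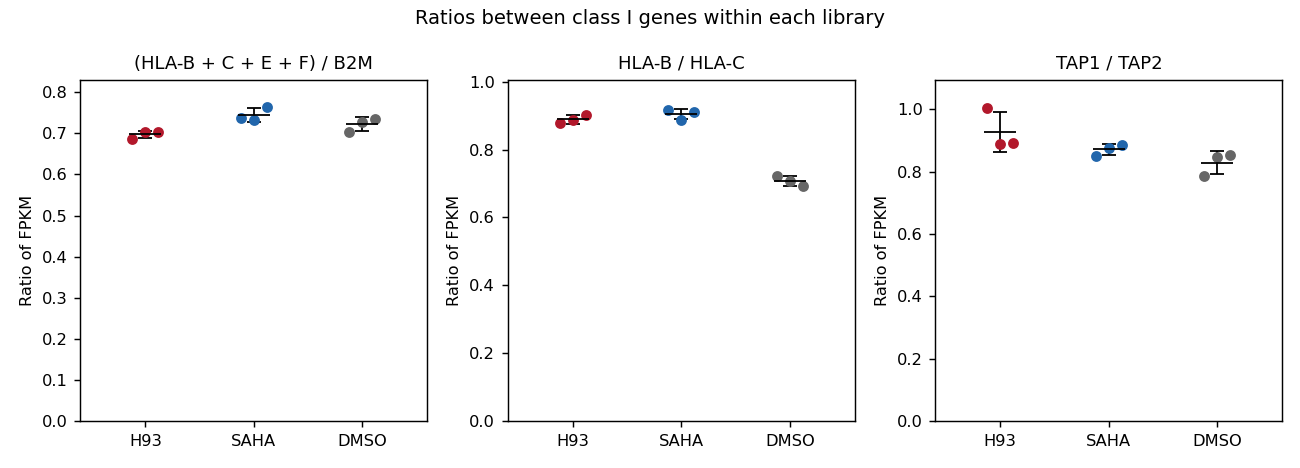
Ratios of FPKM within each library (vertical axes) for the summed HLA-B, HLA-C, HLA-E and HLA-F over B2M, for HLA-B over HLA-C and for TAP1 over TAP2, in the H93, SAHA and DMSO groups. Points are libraries. The HLA-B to HLA-C ratio is 0.879 to 0.916 in the treated libraries and 0.692 to 0.723 with DMSO, whereas the heavy chain to B2M ratio stays between 0.687 and 0.765 throughout.

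Other genes of class I biology were looked at in 5 lists of 63 genes, of which 57 were tested. With H93, 26 were higher (45.6%) and 21 lower (36.8%) than with DMSO, beside 34.9% and 35.0% of all genes, and the median log2 difference was 0.088. With SAHA, 21 were higher and 21 lower (36.8% each), beside 27.4% and 31.4% of all genes, with a median of 0.016. Between H93 and SAHA, 16 were higher (28.1%) and 11 lower (19.3%) with H93, beside 17.6% and 13.9%. The same shares of all genes stand beside the counts of each list that follows, and with 7 to 21 tested genes a list, those counts are given as a description. Of the 57, 5 had at least 1 library under 1 FPKM and so could pass the filter through the groups where they were higher.

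Partners of loading and trimming divided between rise and fall. Of the 9 tested, 4 were higher and 5 lower with H93, and 3 were higher and 5 lower with SAHA. ERAP1, the aminopeptidase that trims peptides in the endoplasmic reticulum, measured 1.76 ± 0.050 FPKM with H93, 2.14 ± 0.0302 FPKM with SAHA and 3.46 ± 0.217 FPKM with DMSO (SD, n = 3), a log2 difference of -0.69 with H93 (limma adjusted p = 1.29e-07) and -0.50 with SAHA. Its relative ERAP2 was under 1 FPKM in all treated libraries and passed the filter through the DMSO group alone. The log2 difference of ERAP2 was -0.35 with H93 and -0.30 with SAHA, and the counts of this list include it. CANX, or calnexin, the chaperone of newly made heavy chains, fell to 157.5 ± 2.48 FPKM with H93 and 171.5 ± 3.81 FPKM with SAHA, against 199.6 ± 1.34 FPKM with DMSO. HM13, the signal peptide peptidase that releases leader peptides later shown by HLA-E, stood at 50.1 ± 0.624 FPKM with H93, 43.5 ± 1.57 FPKM with SAHA and 33.7 ± 0.704 FPKM with DMSO, a log2 difference of 0.56 with H93 (limma adjusted p = 6.91e-09) and 0.36 with SAHA.

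Among 9 proteasome genes, 2 were higher and 3 lower with H93, and 3 were higher and 4 lower with SAHA. The immunoproteasome subunits, which interferon gamma exchanges for constitutive ones, did not move together. PSMB10 fell to 5.08 ± 0.897 FPKM with H93 and 7.77 ± 0.451 FPKM with SAHA, against 12.4 ± 1.12 FPKM with DMSO, log2 differences of -1.14 (limma adjusted p = 2.53e-07) and -0.60 (adjusted p = 0.000114). PSMB8 rose to 5.64 ± 0.889 FPKM with H93 and 5.55 ± 0.141 FPKM with SAHA, against 3.85 ± 0.401 FPKM with DMSO, by 0.45 (limma adjusted p = 0.000452) and 0.44 on the log2 scale. PSMB9, named here after its values were seen because it is the divergent neighbour of TAP1, was not called, at 1.76 ± 0.777 FPKM with H93, 1.89 ± 0.278 FPKM with SAHA and 1.41 ± 0.396 FPKM with DMSO (limma adjusted p = 0.437 and 0.228). Without H93 replicate 3, at 0.871 FPKM, PSMB9 was called higher with H93 (log2 difference 0.43, limma adjusted p = 0.0104). PSME1, a subunit of the PA28 proteasome activator, was lower by a log2 difference of -0.51 with H93 and -0.47 with SAHA, and the constitutive subunit PSMB6 by -0.34 and -0.16.

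Regulators of class I transcription moved in both directions. Of 21 tested, 7 were higher and 10 lower with H93, and 4 were higher and 9 lower with SAHA. RFX5, the DNA-binding subunit of the RFX complex at class I promoters, fell to 23.9 ± 0.180 FPKM with H93 and 28.1 ± 1.49 FPKM with SAHA, against 38.6 ± 0.373 FPKM with DMSO (log2 differences -0.67 and -0.45, limma adjusted p = 4.68e-09 and 3.51e-07). ATF1, a factor that binds CRE elements, fell to 4.54 ± 0.273 FPKM with H93 and 5.53 ± 0.183 FPKM with SAHA, against 7.17 ± 0.128 FPKM with DMSO. STAT2, which carries the type I interferon signal, reached 20.3 ± 0.290 FPKM with H93 and 17.1 ± 0.315 FPKM with SAHA, against 14.4 ± 0.348 FPKM with DMSO, and rose by 0.47 and 0.23 on the log2 scale. JAK2, a kinase of the interferon gamma receptor, rose by 0.41 and 0.29. The 2 regulators left untested for low values were IRF2 and CIITA.

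**Figure D4:**
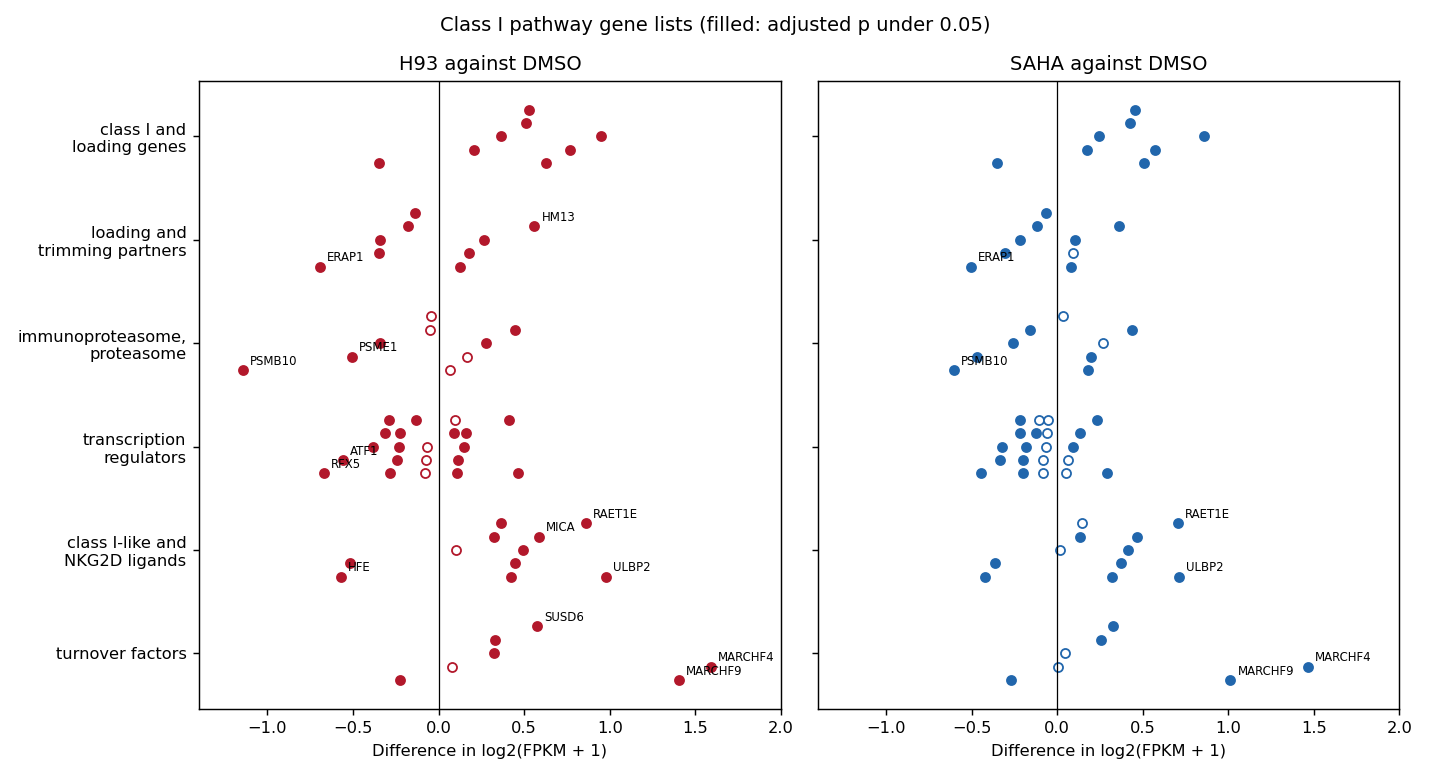
Log2(FPKM + 1) differences of each tested gene of the 5 pathway lists and of the members, for H93 against DMSO (left) and SAHA against DMSO (right). Each point is a gene. The members lie mostly right of 0, with medians of 0.52 and 0.44, while the loading partners, proteasome genes and regulators spread on both sides, with medians between -0.14 and 0.033.

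The class I-like molecules and ligands of NKG2D, the activating receptor of natural killer cells, had 8 of 11 tested genes higher and 2 lower with H93, and 7 higher and 2 lower with SAHA. Their median log2 differences were 0.43 and 0.32. ULBP2, an NKG2D ligand, stood at 8.21 ± 0.529 FPKM with H93, 6.66 ± 0.788 FPKM with SAHA and 3.67 ± 0.410 FPKM with DMSO, log2 differences of 0.98 (limma adjusted p = 2.69e-07) and 0.71. MICA, a stress-induced ligand of the same receptor, rose to 45.8 ± 0.584 FPKM with H93 and 42.1 ± 0.756 FPKM with SAHA, against 30.2 ± 0.973 FPKM with DMSO. RAET1E, another ligand, which passed the filter through the treated groups alone, measured 2.27 ± 0.145, 1.94 ± 0.217 and 0.801 ± 0.0175 FPKM in the H93, SAHA and DMSO groups. MR1, at 0.647 FPKM on average with DMSO, also passed through the treated groups alone, and RAET1G had 3 libraries under 1 FPKM. The counts and medians of this list include these genes. HFE, a class I-like regulator of iron uptake that pairs with B2M, fell to 1.85 ± 0.261 FPKM with H93 and 2.15 ± 0.123 FPKM with SAHA, against 3.23 ± 0.212 FPKM with DMSO.

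Factors that remove class I from the cell held the widest changes of any list. Of 7 tested, 5 were higher and 1 lower with H93, and 4 were higher and 1 lower with SAHA. MARCHF4, a membrane ubiquitin ligase able to lower surface class I when overexpressed, measured 31.0, 29.8 and 30.0 FPKM with H93, 29.005, 25.5 and 28.6 FPKM with SAHA, and 9.58, 9.33 and 9.24 FPKM with DMSO. That is a log2 difference of 1.59 with H93 (limma adjusted p = 2.20e-11) and 1.47 with SAHA (adjusted p = 8.67e-11), past the size of any member's change. MARCHF9, a ligase of the same family, measured 9.45, 10.2 and 9.42 FPKM with H93, 6.80, 7.33 and 7.26 FPKM with SAHA, and 3.15, 3.06 and 2.89 FPKM with DMSO. Its 3 groups did not overlap, and its log2 differences from DMSO were 1.40 with H93 (limma adjusted p = 1.33e-10) and 1.01 with SAHA (adjusted p = 4.36e-09).

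SUSD6, which guides class I to lysosomes, rose to 6.41 ± 0.148 FPKM with H93 and 5.26 ± 0.449 FPKM with SAHA, against 3.99 ± 0.308 FPKM with DMSO. SYVN1, or HRD1, a ligase of endoplasmic reticulum degradation, was higher with H93 at 16.9 ± 0.449 FPKM against 13.3 ± 0.608 FPKM with DMSO (log2 difference 0.33, limma adjusted p = 7.48e-06). With SAHA it measured 13.7 ± 0.323 FPKM and was not called (log2 difference 0.045, adjusted p = 0.336). SYVN1 also differed between H93 and SAHA directly, by 0.28 on the log2 scale (limma adjusted p = 0.000302). The gene of this list that was lower was WWP2, by a log2 difference of -0.23 with H93 and -0.27 with SAHA (limma adjusted p = 0.000595 and 0.000207). TMEM127 was not called with either compound. Surface protein was not measured, so how these RNA levels relate to displayed class I was not tested.

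**Figure D5:**
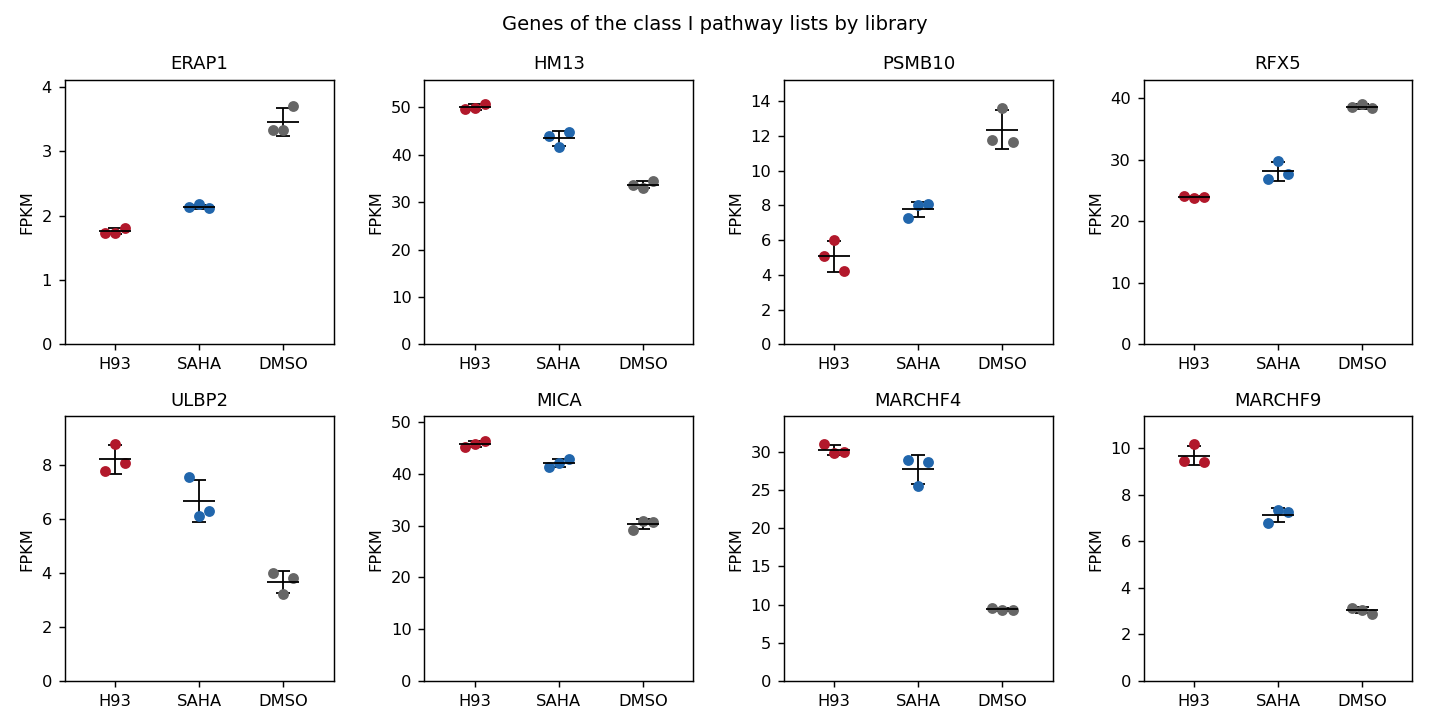
FPKM by library (vertical axes) of ERAP1, HM13, PSMB10, RFX5, ULBP2, MICA, MARCHF4 and MARCHF9 in the H93, SAHA and DMSO groups. Points are libraries and bars with whiskers are the mean ± SD of 3 libraries. MARCHF4 is near 30 with H93 and under 10 with DMSO, and PSMB10 is 5.08 ± 0.897 with H93 and 12.4 ± 1.12 with DMSO.

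Across the 9 libraries, the 7 members with higher RNA in treated cells were positively correlated with each other on the log2(FPKM + 1) scale. Pearson's r ran from 0.857 for HLA-F and TAP1 to 0.993 for HLA-B and HLA-C, and TAPBP was negatively related to the other tested members, with r between -0.989 and -0.894. These libraries fall into 3 treatment groups, so r describes mainly the group means. The pattern was common, since 1042 of 11517 other genes had an r above 0.95 with HLA-B, 1309 with B2M and 425 with TAP1. RBMS2, RAC2 and S100A16 were most like HLA-B (r of 0.9985 or more). SSR3, ESM1 and SERINC1 were most like B2M (0.9986 or more), and TMEM50A, PDZD7 and MPZL3 most like TAP1 (0.985 to 0.992). Pearson's r does not reflect the size of a change. ESM1 averaged 22.3, 11.3 and 0.301 FPKM in the H93, SAHA and DMSO groups, so it passed the filter through the treated groups alone. PDZD7 averaged 2.31, 1.69 and 0.813 FPKM, and was thus also under 1 FPKM on average with DMSO.

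Other epithelial markers moved with the treatment in these libraries. KRT19 averaged 420.4 FPKM with H93, 326.5 FPKM with SAHA and 169.4 FPKM with DMSO. EPCAM averaged 30.4, 37.8 and 67.1 FPKM and CDH1, or E-cadherin, 4.34, 5.09 and 13.3 FPKM in the H93, SAHA and DMSO groups. The summed epithelial markers were 1827 to 1864 FPKM with H93, 1751 to 1827 FPKM with SAHA and 1583 to 1623 FPKM with DMSO. The part of these shifts in the class I results was not tested.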

How the data were processed

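RNA from DU145 cells was extracted with TRIzol and made into libraries with a stranded TruSeq mRNA kit, per the labels' protocols. The authors deposited 1 table of FPKM per gene and library. Trimmomatic 0.36, HISAT2, Cufflinks and GRCh38.p13 appear, without roles, in the submitters' processing notes. The annotation and strand setting were not given in the sources used here. Columns were matched to samples by name, and groups came from the labels. No nonzero value of a gene was identical in 2 libraries.

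Log2(FPKM + 1) was fitted with limma 3.58.1 in R 4.3.3 to the 3 group means of the 9 libraries jointly, letting the prior variance follow expression level (residual degrees of freedom 6, prior 6.05). Genes at 1 FPKM or more in at least 3 libraries were kept, 11525 of 16772, and p-values were two-sided and adjusted over all of them (Benjamini-Hochberg). Differences understate the change of low genes. The fit was tested on simulated data. Python 3.11.15 with pandas 2.3.3, numpy 2.4.6, scipy 1.17.1 and matplotlib 3.10.9 did the rest. Ratios were compared by exact permutation. Absolute depth was unknown, and relative depth came from values under 0.1.

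Residual correlations gave no sign that replicate numbers pair the libraries, so the main fit used no pairing. Positions and overlaps used GENCODE release 29, and promoters RefSeq. All 9 members are named, with the 4 genes of each of 5 pathway lists that had the largest absolute log2 difference for H93 against DMSO, the 3 genes most correlated with each of HLA-B, B2M and TAP1, and markers. WWP2, TMEM127, MR1 and RAET1G are also named, after their values were seen. Members, lists and tests were chosen with earlier results of these data known. Alternatives covered pseudocount, filter, scaling, robust empirical Bayes, libraries fitted, the replicate block and each left-out library.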

Additional observations from a re-analysis of the deposited data

How the results depend on the processing

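Under all 18 alternatives, each of the 8 tested members kept its direction and call for H93 against DMSO and for SAHA against DMSO. With a pseudocount of 5, HLA-F differed by 0.31 with H93 and 0.27 with SAHA, still called. For H93 against SAHA, B2M and HLA-C kept their calls throughout, HLA-B lost its call in 5 alternatives, HLA-E in 2 and TAP1 in 11. The 5 members called there became 3 with median-ratio scaling (TAP1 adjusted p = 0.0705, HLA-B adjusted p = 0.0610), and between 2 and 5 when a library was left out. The uncalled TAPBP difference of H93 and SAHA turned negative, to -0.013 with median-ratio scaling, -0.011 with quantile scaling, -0.0036 without H93 replicate 1 and -0.0171 without SAHA replicate 2. Over the left-out libraries it ran from -0.0171 to 0.0169. For H93 against SAHA, the median difference of all genes moved from 0.016 to 0.0021 with median-ratio scaling and 0.0011 with quantile scaling. The balance of genes called higher and lower in that comparison turned over. Against DMSO, the median moved from 0.0016 to -0.0046 and -0.0085 with H93, and from -0.015 to -0.0070 and -0.0077 with SAHA, in the same order of scalings.

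Same-numbered libraries had residual correlations of -0.0975 to 0.0355 and others of -0.0495 to 0.0697, which gave no sign of pairing by number. Correlations cannot show whether same-numbered libraries were handled together. With the replicate block, 8, 8 and 4 members were called for H93 against DMSO, SAHA against DMSO and H93 against SAHA, TAP1 (adjusted p = 0.0641) being the call lost. Alternatives were added after seeing the data for the HLA-B to HLA-C ratio, PSMB9 and the pathway genes named by size of difference. Among these genes, PSMB9 with H93 gained a call without H93 replicate 3. The others kept their calls against DMSO wherever they were tested. ERAP2 fell below the filter when any DMSO library was left out, and ERAP1, ERAP2, HFE, JAK2, RAET1E and PSMB9 had no test with a mean FPKM of at least 5. Leaving out a library gave 43 to 47, 38 to 42 and 20 to 27 called pathway genes in the 3 comparisons. NLRC5 was too low for a test after filtering, and absolute depth was unknown.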
